A study of Mus musculus with 22 samples.

Results

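The 9 genes described here are Foxj1, Rsph1, Rsph4a, Hydin, Spag16, Dnali1, Tekt1, Ccdc153 and Tmem212, which serve as markers of ependymal cells and of motile cilia. They were chosen by symbol, and all 9 were found among the 24060 gene rows of the count tables. The study profiled RNA from the spinal cord of young adult female mice with RiboTag, a method in which Cre recombinase switches on an HA-tagged ribosomal protein so that the ribosome-bound RNA of the Cre-expressing cells can be pulled down with an HA antibody. From each animal the pulled-down RNA (HA IP) and the RNA left behind in the same lysate (flow-through) were sequenced separately, giving 22 libraries from 11 animals. Every animal carried mGFAP-Cre, which is driven by the mouse Gfap promoter and is used for astrocytes, together with the RiboTag allele. The STAT3-CKO SCI group (n = 3 animals) in addition carried STAT3-LoxP, so that the transcription factor STAT3 was deleted in the Cre-expressing cells, and received a severe crush injury of the spinal cord (SCI) at level T10 with tissue taken after 14 days. The WT SCI group (n = 4) had intact STAT3 and the same injury and time, and the WT uninjured group (n = 4) had intact STAT3 and no injury. The tissue was the central 3 mm of the lower thoracic cord. No uninjured STAT3-CKO group was analysed here, so the effect of the deletion alone was not measured.

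Ependymal cells line the central canal of the spinal cord and the brain ventricles and carry motile cilia that move cerebrospinal fluid. The core of a motile cilium, the axoneme, is a ring of doublet microtubules bearing outer and inner dynein arms, with radial spokes that reach inward to a central pair of microtubules. The transcription factor FOXJ1, acting together with the RFX factors, switches on the genes that build this machinery. Non-motile primary cilia, which most other cells have, share the intraflagellar transport proteins with motile cilia but lack most of the motility parts.

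Among the 9 genes, Foxj1 encodes the regulator itself (chr11:116330704-116335399, minus strand of mm10, as are all positions given here). Rsph1 (chr17:31255019-31277383, minus strand) and Rsph4a (chr10:33905111-33916021, plus strand) encode radial spoke head proteins. Hydin (chr8:110266977-110610253, plus strand) and Spag16 (chr1:69826970-70725132, plus strand) encode proteins of the central pair apparatus. Dnali1 (chr4:125055338-125065703, minus strand) encodes a light intermediate chain of the inner dynein arms, and Tekt1 (chr11:72344722-72362442, minus strand) encodes a tektin, a filament protein of the doublet microtubules. Ccdc153 (chr9:44240676-44247306, plus strand) encodes a coiled-coil protein and Tmem212 (chr3:27866066-27896368, minus strand) a membrane protein, and both are used as markers of ependymal cells. An annotated gene on the opposite strand overlaps an exon of Rsph1 (AC154652.1), Hydin (Gm26832) and Dnali1 (Gnl2). Whether counting used strand is not given in the sources used here, so reads of these genes and of their overlapping partners cannot be told apart.

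RefSeq promoter windows of 300 bases around the annotated start (GRCm38.p6) were found for 6 of the 9 genes, in 7 entries because Tekt1 has a pair of annotated starts. The short RFX motif searched, GTTGCC on one strand or GGCAAC on the other, is only a part of the full site that RFX factors bind, and it lay in 4 of these 7 windows, those of Tekt1, Ccdc153, Spag16 and Hydin. It lay in 12.51% of all 32851 promoter windows of the same length. The forkhead motif GTAAACA or its reverse complement TGTTTAC lay in 0 of the 7 windows and in 3.65% of all windows. The 4 windows that hold this partial RFX motif are printed because these genes share it, in the direction of transcription, with the motif in capitals.
Tekt1, chr11:72361833-72362132, minus strand: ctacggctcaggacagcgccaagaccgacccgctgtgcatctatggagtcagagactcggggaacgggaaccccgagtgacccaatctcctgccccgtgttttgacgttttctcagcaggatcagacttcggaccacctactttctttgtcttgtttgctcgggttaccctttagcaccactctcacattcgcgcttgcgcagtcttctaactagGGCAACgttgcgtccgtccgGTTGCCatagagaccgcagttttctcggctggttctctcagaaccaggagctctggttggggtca
Ccdc153, chr9:44240427-44240726, plus strand: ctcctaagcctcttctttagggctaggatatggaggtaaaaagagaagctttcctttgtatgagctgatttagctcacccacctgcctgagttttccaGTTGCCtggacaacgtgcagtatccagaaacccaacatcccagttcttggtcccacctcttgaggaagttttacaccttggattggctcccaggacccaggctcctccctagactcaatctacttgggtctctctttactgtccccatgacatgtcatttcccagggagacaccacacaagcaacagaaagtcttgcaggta
Spag16, chr1:69826720-69827019, plus strand: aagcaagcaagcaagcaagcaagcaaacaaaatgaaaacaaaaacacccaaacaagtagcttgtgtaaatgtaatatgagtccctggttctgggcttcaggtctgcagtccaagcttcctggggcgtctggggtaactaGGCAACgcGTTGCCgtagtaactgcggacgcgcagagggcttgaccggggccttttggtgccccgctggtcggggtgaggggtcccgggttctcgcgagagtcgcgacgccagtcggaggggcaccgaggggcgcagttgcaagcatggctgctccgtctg
Hydin, chr8:110266727-110267026, plus strand: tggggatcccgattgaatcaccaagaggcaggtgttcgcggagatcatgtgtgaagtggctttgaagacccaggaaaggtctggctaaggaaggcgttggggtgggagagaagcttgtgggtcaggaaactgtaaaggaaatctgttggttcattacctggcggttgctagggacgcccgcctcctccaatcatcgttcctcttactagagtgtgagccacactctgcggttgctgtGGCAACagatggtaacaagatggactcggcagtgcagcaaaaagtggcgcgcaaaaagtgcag
Counted from the annotated start, the partial RFX motifs lie at -35 and -15 in Tekt1, at -152 in Ccdc153, at -111 and -103 in Spag16 and at -13 in Hydin. The windows of Dnali1 and Tmem212 and the other Tekt1 window hold none of these letters. A match of letters is a description of the sequence only, since these data do not measure binding.

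The libraries differed widely in usable depth. A single row that holds ribosomal RNA reads, Rn45s, took 52.2 to 89.2% of the counts in STAT3-CKO SCI HA IP libraries, 89.0 to 96.2% in WT SCI HA IP libraries and 12.6 to 26.7% in WT uninjured HA IP libraries, and the flow-through libraries showed the same order. Outside the ribosomal rows, HA IP libraries held 2496641 to 17348247 counts in STAT3-CKO SCI, 620265 to 2691494 in WT SCI and 26934866 to 51571785 in WT uninjured animals. In flow-through these counts were 460759 to 4022328 in STAT3-CKO SCI, 91626 to 615302 in WT SCI and 2858044 to 10140612 in WT uninjured animals. Within each fraction the Rn45s share of every injured library exceeded that of every uninjured one, so effects of injury and of the Rn45s share cannot be told apart. Between STAT3-CKO SCI and WT SCI the shares overlapped little in HA IP and not at all in flow-through. Effects of genotype and of the Rn45s share thus cannot be told apart either. Stat3, the deleted gene, had 8.65 to 13.6 CPM in STAT3-CKO SCI HA IP and 28.9 to 72.8 CPM in WT SCI HA IP (CPM are counts scaled to a common library size, by TMM over all 22 libraries), without overlap, and fell by 2.17 ± 0.34 on the log2 scale in STAT3-CKO SCI against WT SCI HA IP (± SE, edgeR adjusted p = 0.00331). In WT uninjured animals all 6 astrocyte markers were higher in HA IP than in flow-through, as were all 4 oligodendrocyte precursor markers and 2 of 5 fibroblast markers. All 5 neuronal markers, all 5 oligodendrocyte markers, 4 of 6 microglia and macrophage markers and 2 of 5 fibroblast markers were lower.

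The depth sets how low a level can be read in each library. A level of 3 counts corresponded to 0.0286 to 0.232 CPM in STAT3-CKO SCI HA IP, 0.227 to 1.08 CPM in WT SCI HA IP and 0.00984 to 0.0204 CPM in WT uninjured HA IP. In flow-through it corresponded to 0.116 to 1.08 CPM, 0.876 to 4.99 CPM and 0.0475 to 0.163 CPM in the same order of groups. All 9 genes had at least 1 count in each WT uninjured HA IP library. In STAT3-CKO SCI HA IP libraries 7, 7 and 9 of the 9 were detected, and in WT SCI HA IP libraries 5, 8, 6 and 5. Flow-through libraries held 3, 3 and 9 of the 9 in STAT3-CKO SCI, 2, 4, 3 and 1 in WT SCI and 8, 9, 7 and 8 in WT uninjured animals. In each fraction the WT uninjured group, the deepest, thus held the most of the 9 genes and the WT SCI group, the shallowest, the fewest, as the plot of detected genes against depth shows. Within a group the number did not follow depth library by library, since animal 9596 had the deepest WT SCI library of each fraction and held 5 of the 9 genes in HA IP and 1 in flow-through. A 0 in an injured library is read below only against the count its depth allowed.

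**Figure D1:**
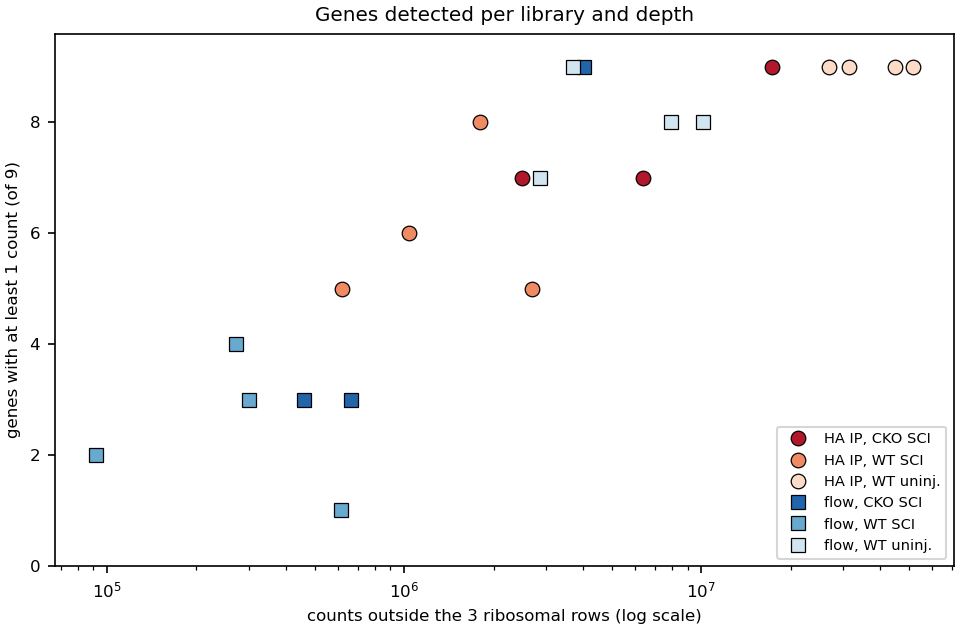
Number of the 9 genes with at least 1 count in each of the 22 libraries (vertical axis) against the counts outside ribosomal rows (horizontal log axis), with a marker for each group and fraction. The shallow WT SCI flow-through libraries hold 1 to 4 of the 9 genes, and the deep WT uninjured HA IP libraries hold all 9.

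In the uninjured cord the levels per kilobase of transcript in HA IP ran from the radial spoke gene Rsph1 down to Hydin, the longest transcript of the 9. Rsph1 stood at 2.21 ± 0.47 CPM per kilobase (SD, n = 4, as for the other means in this paragraph), Foxj1 at 1.81 ± 0.063, Ccdc153 at 1.57 ± 0.49 and Tmem212 at 1.25 ± 0.067. The ranges of Rsph1, Foxj1 and Ccdc153 overlapped from one gene to the next, as did those of Ccdc153 and Tmem212. Dnali1 stood at 0.528 ± 0.11, Tekt1 at 0.373 ± 0.12, Rsph4a at 0.290 ± 0.19, Spag16 at 0.142 ± 0.090 and Hydin at 0.0216 ± 0.014 CPM per kilobase. Within this lower set neighbouring ranges overlapped as far as Spag16, whereas Tmem212 lay above Dnali1 and Spag16 above Hydin in every HA IP library. In flow-through the order began with Foxj1 (0.989 CPM per kilobase) and Rsph1 (0.929) and ended with Dnali1 (0.0280) and Tekt1 (0.0150), the genes that stood in the middle of the HA IP order.

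The comparison of HA IP with flow-through within WT uninjured animals asks which of these transcripts were on the tagged ribosomes of mGFAP-Cre cells. Of the 9 genes 6 were higher in HA IP (edgeR, adjusted p under 0.05), namely Tekt1, Dnali1, Ccdc153, Tmem212, Rsph1 and Foxj1, and none was lower. Over all 14312 genes tested, 50.7% passed, 26.4% higher and 24.2% lower, and the median log2 difference was 1.88 for the 9 genes and 0.02 for all genes. In 5 of the 9, each of the 4 HA IP libraries lay above each of the 4 flow-through libraries. How many of all genes did so was not counted, so this number is not read as a trait of the 9. In bulk libraries such as these, fewer cells of a type and less RNA per cell cannot be told apart, in this comparison and in those that follow.

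Tekt1, the tektin, had 0.305, 0.475, 0.680 and 0.623 CPM in the HA IP libraries of animals 42, 79, 65 and 154, against 0, 0.0839, 0 and 0 CPM in their flow-through libraries. It was thus present in each HA IP library and nearly absent from flow-through, where 2 counts were found in all against 436 counts in HA IP. The log2 difference was 5.20 ± 0.96 (SE, adjusted p = 0.000985), and the ratio of pooled counts was 38.3 (95% counting interval 10.53 to 317). Dnali1, of the inner dynein arms, had 1.34, 1.28, 0.8293 and 1.05 CPM in HA IP, against 0.0158, 0.0419, 0 and 0.181 CPM in flow-through. Its lowest HA IP library lay well above its highest flow-through library, with a log2 difference of 4.10 ± 0.67 (adjusted p = 0.000412). Ccdc153 had 1.87, 2.31, 1.03 and 1.62 CPM in HA IP, against 0.0633, 0.210, 0.109 and 0.342 CPM in flow-through. The groups did not overlap, and the log2 difference was 3.30 ± 0.50 (adjusted p = 0.000262). Tmem212 had 0.945, 0.835, 0.884 and 0.921 CPM in HA IP, against 0.412, 0.252, 0.163 and 0.161 CPM in flow-through. Its HA IP levels were nearly alike in the 4 animals and all above flow-through, with a log2 difference of 1.89 ± 0.40 (adjusted p = 0.00243).

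Foxj1 differed less between the fractions than Tekt1, Dnali1, Ccdc153 and Tmem212. It had 4.73, 5.00, 4.63 and 4.67 CPM in HA IP, against 3.64, 1.22, 2.73 and 2.80 CPM in flow-through. The groups did not overlap, the log2 difference was 0.95 ± 0.27 and the adjusted p was 0.0133. Rsph1, a radial spoke head gene, had 3.43, 2.27, 2.20 and 2.62 CPM in HA IP, against 2.39, 0.461, 0.872 and 0.705 CPM in flow-through. The flow-through library of animal 42 reached into the HA IP range, and the log2 difference of 1.28 ± 0.44 (adjusted p = 0.0314) did not hold its call without the HA IP libraries of animals 42 (adjusted p = 0.0795) or 154 (0.0629), or without the flow-through libraries of animals 79 (0.0637), 65 (0.0702) or 154 (0.0893).

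The other 3 genes did not pass the test. Rsph4a had 1.95, 0.603, 0.401 and 1.28 CPM in HA IP, against 0.0633, 0.629, 0.0545 and 0.503 CPM in flow-through. The flow-through libraries of animals 79 and 154 reached into the HA IP range, and the log2 difference was 1.88 ± 0.75 (adjusted p = 0.0579), which with the animal as a block became 2.01 (adjusted p = 0.0298). Spag16 had 0.528, 0.377, 0.0952 and 0.205 CPM in HA IP, against 0.127, 0.252, 0.163 and 0.121 CPM in flow-through, a log2 difference of 1.02 ± 0.63 (adjusted p = 0.199). Hydin, its partner in the central pair apparatus, was the only one of the 9 with a negative estimate. It had 0.640, 0.191, 0.170 and 0.364 CPM in HA IP, against 0.712, 0.377, 0.436 and 0.705 CPM in flow-through, and the log2 difference was -0.62 ± 0.52 (adjusted p = 0.347). When all 22 libraries shared 1 fit, 3 of the 9 genes (Tekt1, Dnali1 and Ccdc153) passed, and Foxj1 (adjusted p = 0.146), Rsph1 (0.169) and Tmem212 (0.194) did not.

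**Figure D2:**
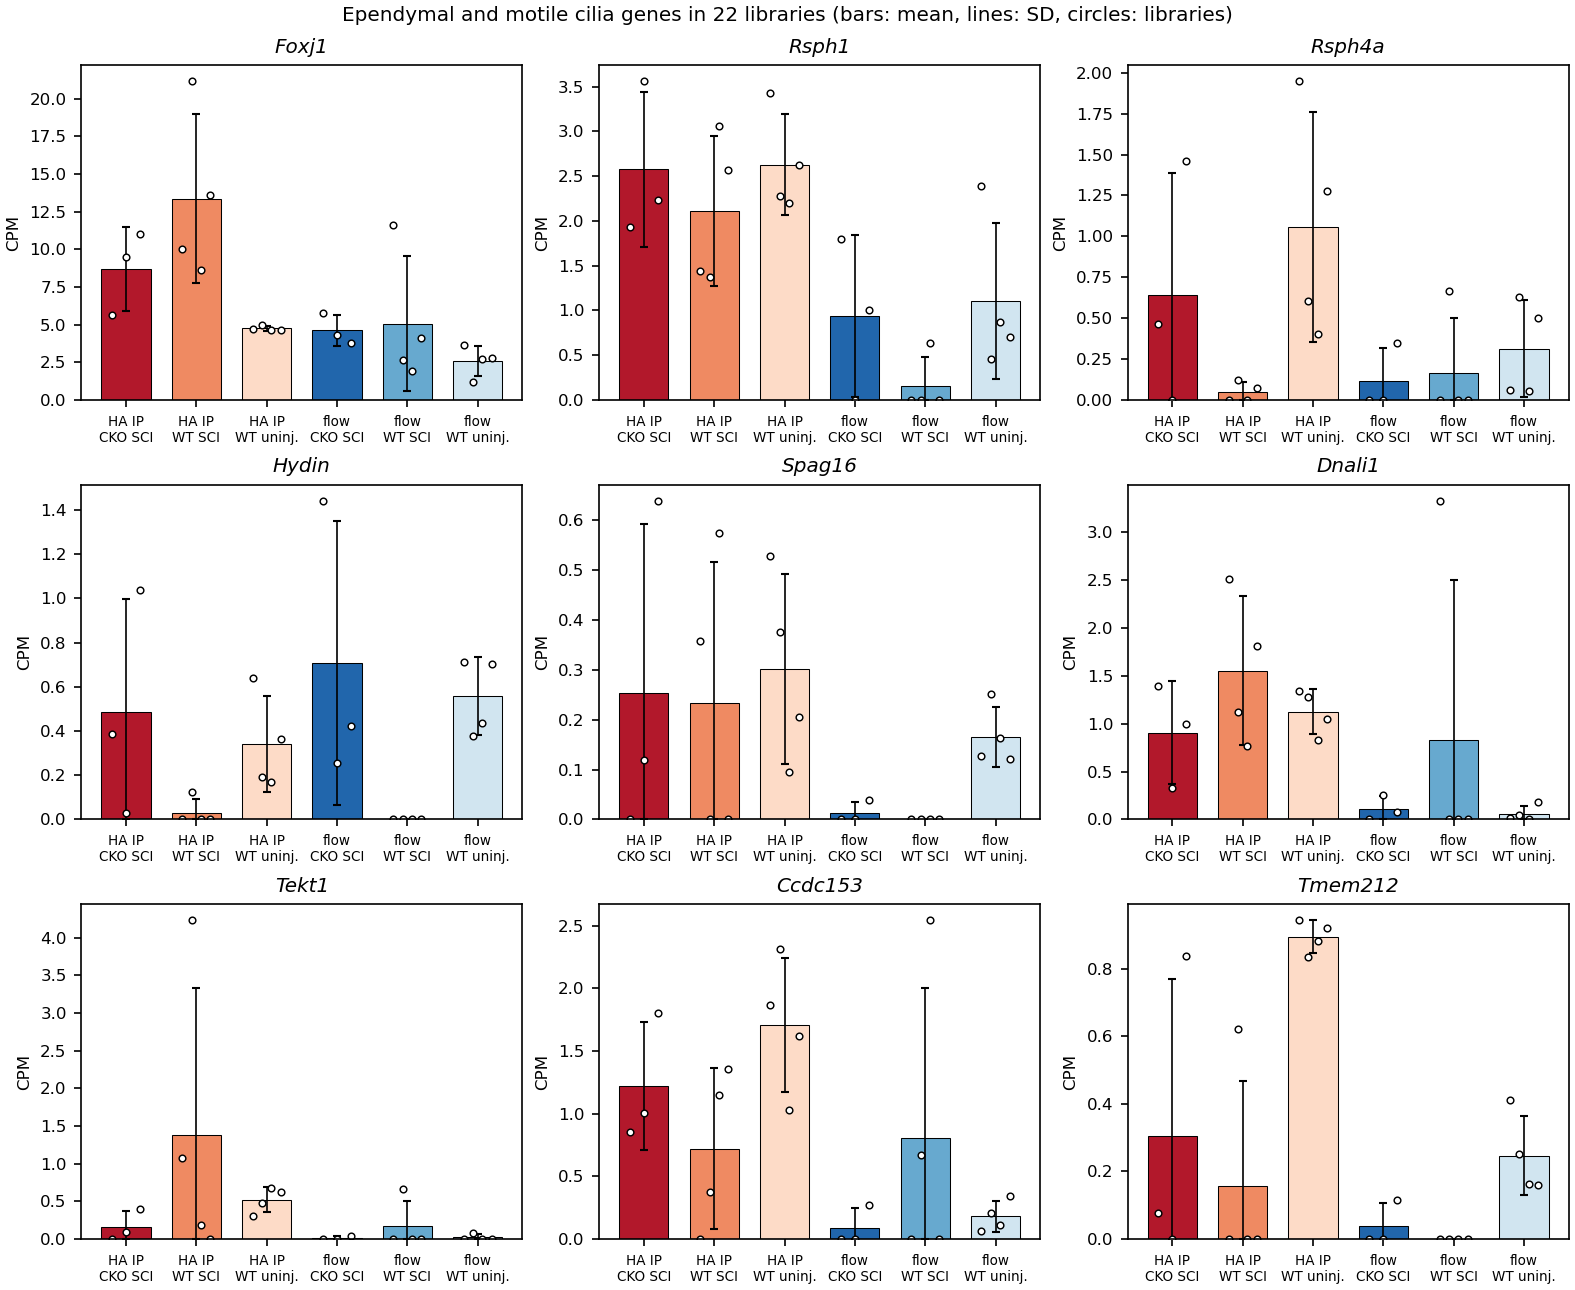
Level of each of the 9 genes in CPM (vertical axes) in every library, by group, with HA IP left of flow-through. Circles are libraries, bars are group means (n = 3 for STAT3-CKO SCI, shortened to CKO SCI on the axis, and n = 4 for the other groups) and vertical lines span 1 SD each way, stopping at 0. Tekt1, Dnali1 and Ccdc153 lie near 0 in the WT uninjured flow-through libraries and above 0 in all 4 WT uninjured HA IP libraries.

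Genes with other roles in the motile cilium were grouped in 9 lists by role, beside 1 list of other ependymal markers. Of 11 other ependymal markers tested 8 were higher and 1 was lower in HA IP, with a median log2 difference of 2.03. They included the transcription factor Nkx6-1 (4.22 ± 0.52) and Tm4sf1 (3.29 ± 0.49), whereas the surface protein gene Cd24a was lower (-1.57 ± 0.18). Of the 80 genes tested in the 9 lists by role, 19 were higher and 9 lower, with a median of 0.37. The share that was higher was close to the 26.4% of all genes and the share that was lower was below the 24.2% of all genes, and 11 in all passed when all 22 libraries shared 1 fit. The outer dynein arm list had 3 of 10 higher and 0 lower, with Dnaic1, an intermediate chain, at 2.86 ± 0.32 and the docking gene Ccdc114 at 2.45 ± 0.44. The doublet microtubule list had 4 of 11 higher and 1 lower, with Tekt4, another tektin, at 5.51 ± 0.78 and Wdr16 at 4.24 ± 0.85, against Efhc2 at -1.40. The radial spoke list had 3 of 7 higher, with Dnajb13 at 3.19 and Rsph9 at 1.75, and 0 lower. Of 5 regulators, the RFX genes Rfx3 (1.55 ± 0.25) and Rfx2 (3.28 ± 0.66) were higher and Gmnc, a geminin-related regulator of multiciliated cells, was lower (-2.004). The central pair list had 1 of 5 higher (Spef2, 2.01), and the nexin link list had 1 of 8 higher (Iqca, 3.61) and 1 lower (Ccdc65, -1.11). The inner dynein arm list had 0 of 7 higher and 1 lower (Dnah1, -1.499), and the assembly list had 1 of 7 higher (Heatr2, 1.15) and 1 lower (Lrrc6, -1.63). The intraflagellar transport list, whose proteins also serve primary cilia, had 4 of 20 higher and 4 lower, with Ift27 at 2.40 ± 0.26 and Ift74 at 0.92 against Kif3a at -1.12 and Ift20 at -0.92.

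The comparison of WT SCI with WT uninjured animals in HA IP asks how these transcripts stood 14 days after injury. Of the 9 genes Foxj1 rose and Rsph4a fell, and the other 7 did not pass the test, Hydin and Tmem212 with negative estimates over 2 on the log2 scale. Over all 14764 genes tested in HA IP, 26.7% passed, 15.8% higher and 10.9% lower in WT SCI, and the median log2 difference was -0.76 for the 9 genes and 0.00 for all genes. Apart from Foxj1, the 9 genes had too few counts in WT SCI libraries to pass the filter on low counts through that group alone. The median of the 9 is thus a description only. So is the call of Rsph4a, which had 2 counts in WT SCI and could be tested only through its counts in the other groups. Taken as a count, 2 of 9 is not above the share of all genes. The estimates of Foxj1 and Rsph4a had opposite signs, as the plot of differences shows.

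Foxj1 had 10.0, 21.2, 8.62 and 13.6 CPM in the HA IP libraries of WT SCI animals 9935, 9874, 9843 and 9596, against 4.73, 5.00, 4.63 and 4.67 CPM in the 4 WT uninjured animals. Every WT SCI library lay above every WT uninjured library, and the injured animals also varied more, with 13.4 ± 5.61 CPM in WT SCI and 4.76 ± 0.166 CPM in WT uninjured animals (SD, n = 4 each). The log2 difference was 1.51 ± 0.37 (adjusted p = 0.00562), from 423 counts in WT SCI and 4191 in WT uninjured libraries. Animal 9874 was the highest, and without it the log2 difference was 1.20 (adjusted p = 0.0181). In libraries thinned to equal depth it was 1.53 (adjusted p = 0.0137).

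Rsph4a had 0, 0.124, 0 and 0.0755 CPM in WT SCI HA IP, against 1.95, 0.603, 0.401 and 1.28 CPM in WT uninjured HA IP. These are 2 counts in the WT SCI libraries, where 36.0 would be found at the WT uninjured level and this depth, and the highest WT SCI library lay below the lowest WT uninjured one. The log2 difference was -3.97 ± 1.37 (adjusted p = 0.0382), and the pooled level in WT SCI was 0.0555 of that in WT uninjured animals (95% counting interval 0.00671 to 0.201). Of the 8 libraries compared, 7 were each needed for the call. Without any one of these the adjusted p lay between 0.0507 and 0.1005, without WT uninjured animal 65 it was 0.0442, and after thinning to equal depth the gene had too few counts to be tested.

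Hydin had 1 count in the 4 WT SCI HA IP libraries, where 11.5 would be found at the WT uninjured level, and 347 counts in the WT uninjured ones. Its log2 difference was -3.24 ± 1.5004 (adjusted p = 0.115), and with the STAT3-CKO SCI libraries out of the fit the adjusted p was 0.0497. Tmem212 had 0, 0.622, 0 and 0 CPM in WT SCI HA IP, against 0.945, 0.835, 0.884 and 0.921 CPM in WT uninjured HA IP. All 5 counts in WT SCI, against 26.5 at the WT uninjured level, came from animal 9874. The WT SCI libraries lay below the WT uninjured ones without overlap, the log2 difference was -2.33 ± 1.26 (adjusted p = 0.176), and without animal 9874 the adjusted p was 0.0334.

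Tekt1 had 1.08, 4.23, 0.192 and 0 CPM in WT SCI HA IP, against 0.305, 0.475, 0.680 and 0.623 CPM in WT uninjured HA IP. Animal 9874 gave 34 of the 38 WT SCI counts (89.5%). The log2 difference was 1.43 ± 1.06 (adjusted p = 0.327), and without animal 9874 it was -0.87 (adjusted p = 0.638), so its direction rests on that library. For the other 4 genes the groups overlapped. Ccdc153 had 27 counts in WT SCI against 51.0 at the WT uninjured level (log2 difference -1.09 ± 0.72, adjusted p = 0.271), and Spag16 had 4 against 9.72 (-0.76 ± 1.30, adjusted p = 0.695). Rsph1, the other radial spoke head gene, had 1.44, 1.37, 3.07 and 2.57 CPM in WT SCI HA IP, against 3.43, 2.27, 2.20 and 2.62 CPM in WT uninjured HA IP (-0.29 ± 0.52, adjusted p = 0.716). Dnali1 had 2.51, 1.12, 0.766 and 1.81 CPM in WT SCI HA IP, against 1.34, 1.28, 0.8293 and 1.05 CPM in WT uninjured HA IP (0.44 ± 0.67, adjusted p = 0.653). For Rsph1, 2 WT SCI libraries lay below the WT uninjured range and none above it, and for Dnali1 2 lay above it and 1 below.

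**Figure D3:**
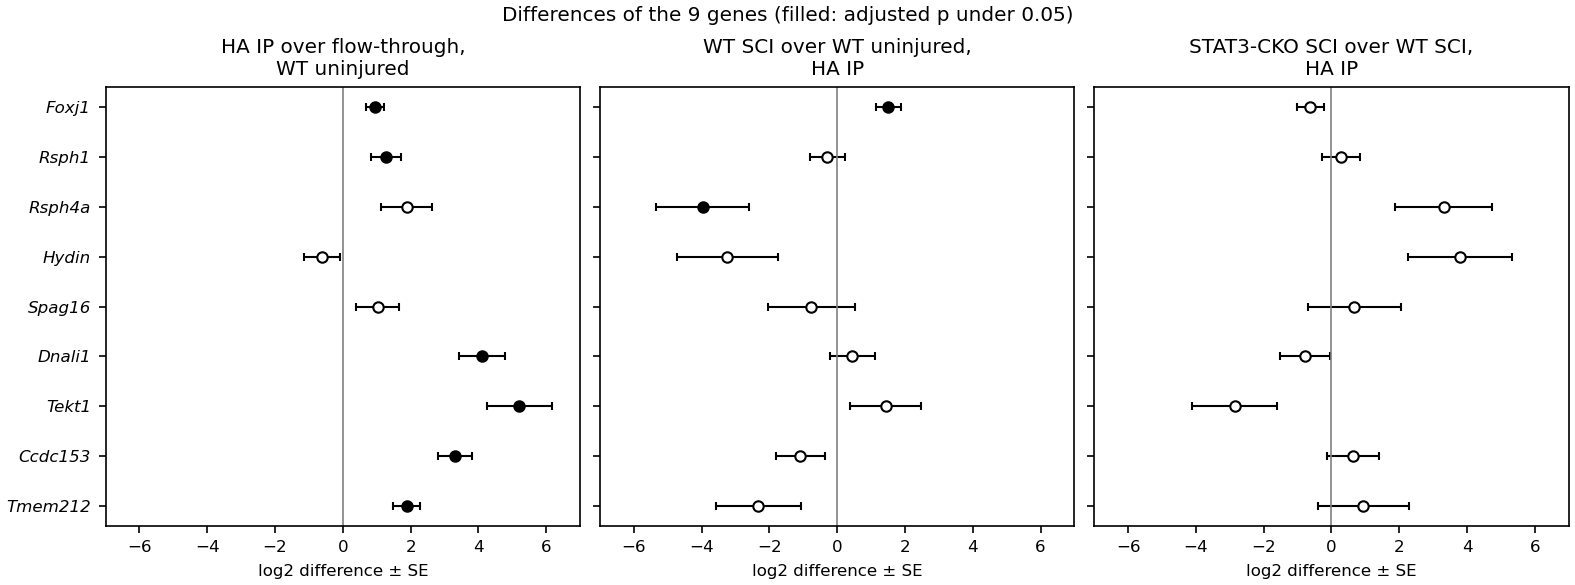
Log2 difference of each of the 9 genes (horizontal axes) for HA IP over flow-through in WT uninjured animals, for WT SCI over WT uninjured animals in HA IP and for STAT3-CKO SCI over WT SCI in HA IP, with bars of 1 SE each way and filled points for adjusted p under 0.05. In HA IP after injury Foxj1 lies at 1.51 and Rsph4a at -3.97, and between the fractions of WT uninjured animals 6 genes are filled on the positive side.

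Among the genes grouped by role, 1 of 87 tested rose and 7 fell in WT SCI HA IP, where 15.8% of all genes rose and 10.9% fell, so neither direction was more frequent in the lists than among all genes. These genes had a median log2 difference of -0.58, or -0.48 with genes absent from a group set at their bound. The filter on low counts can admit a gene through the deeper WT uninjured libraries alone. Low genes could thus enter more readily as falls than as rises, so the negative median and the number of falls are descriptions only. The called genes at 0 counts in WT SCI (Dnah9, Lrrc6 and Spag6) could be tested only through the other groups, and only as falls. Rfx3, the RFX partner of FOXJ1, fell by 1.62 ± 0.35 (adjusted p = 0.00228), opposite to Foxj1. Of the outer dynein arm genes Dnaic1 fell by 3.29 ± 0.78 (adjusted p = 0.00425), with 25 counts in WT SCI against 7163 in WT uninjured libraries, and Dnah9, a heavy chain, had 0 counts in WT SCI and 462 in WT uninjured libraries, at least 5.11-fold lower. Ccdc114 of the same list rose (2.06 ± 0.71, adjusted p = 0.0382), and 142 of its 181 WT SCI counts came from animal 9596. The assembly genes Spag1 (-2.25 ± 0.65) and Lrrc6 (0 counts in WT SCI and 269 in WT uninjured libraries, at least 2.97-fold lower) fell. Of the central pair genes Spag6 fell, with 0 counts in WT SCI and 552 in WT uninjured libraries, at least 6.10-fold lower. Of 20 intraflagellar transport genes Ift74 fell (-1.97 ± 0.66, adjusted p = 0.0331). No gene of the inner dynein arm, radial spoke, nexin link and doublet microtubule lists passed, and the smallest p in the inner dynein arm, radial spoke and nexin link lists belonged to Wdr63 (0 counts in WT SCI and 165 in WT uninjured libraries, adjusted p = 0.0979), Ropn1l and Iqcg (-1.88). The count of 8 was 4 after thinning to equal depth, 12 without the ribosomal rows, 13 by DESeq2 and 19 without the STAT3-CKO SCI libraries in the fit. It was 5, 5 and 4 without WT uninjured animals 42, 79 and 154, and 13 without WT SCI animal 9843.

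Of 11 other ependymal markers 2 rose and 2 fell in WT SCI HA IP. Mia rose by 1.94 ± 0.52 (adjusted p = 0.00989) and Tm4sf1 by 1.58 ± 0.53 (adjusted p = 0.0351), both highest in animal 9874, the library that was also highest for Foxj1 and Tekt1. The genes 1110017D15Rik (-3.23 ± 0.99, with 3 counts in WT SCI and 887 in WT uninjured libraries) and 1700012B09Rik (0 and 268 counts, at least 2.96-fold lower in WT SCI) fell. Both passed the filter on low counts only through the other groups, so these falls are a description only. Other cell types' markers also changed in these libraries. Of 6 microglia and macrophage markers 5 rose, with a summed level of 516 to 2096 CPM in WT SCI and 8.24 to 20.4 CPM in WT uninjured HA IP, and all 5 oligodendrocyte and all 4 oligodendrocyte precursor markers rose, while 3 of 5 neuronal markers fell. Of 6 astrocyte markers Gfap rose (1.62 ± 0.28) and 3 fell (Gja1, Slc1a3 and Aqp4), with summed levels of 2772 to 4612 CPM in WT SCI and 2137 to 3919 CPM in WT uninjured HA IP. Whether the make-up of the cells pulled down plays a part in the levels of the ciliary genes was not tested.

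**Figure D4:**
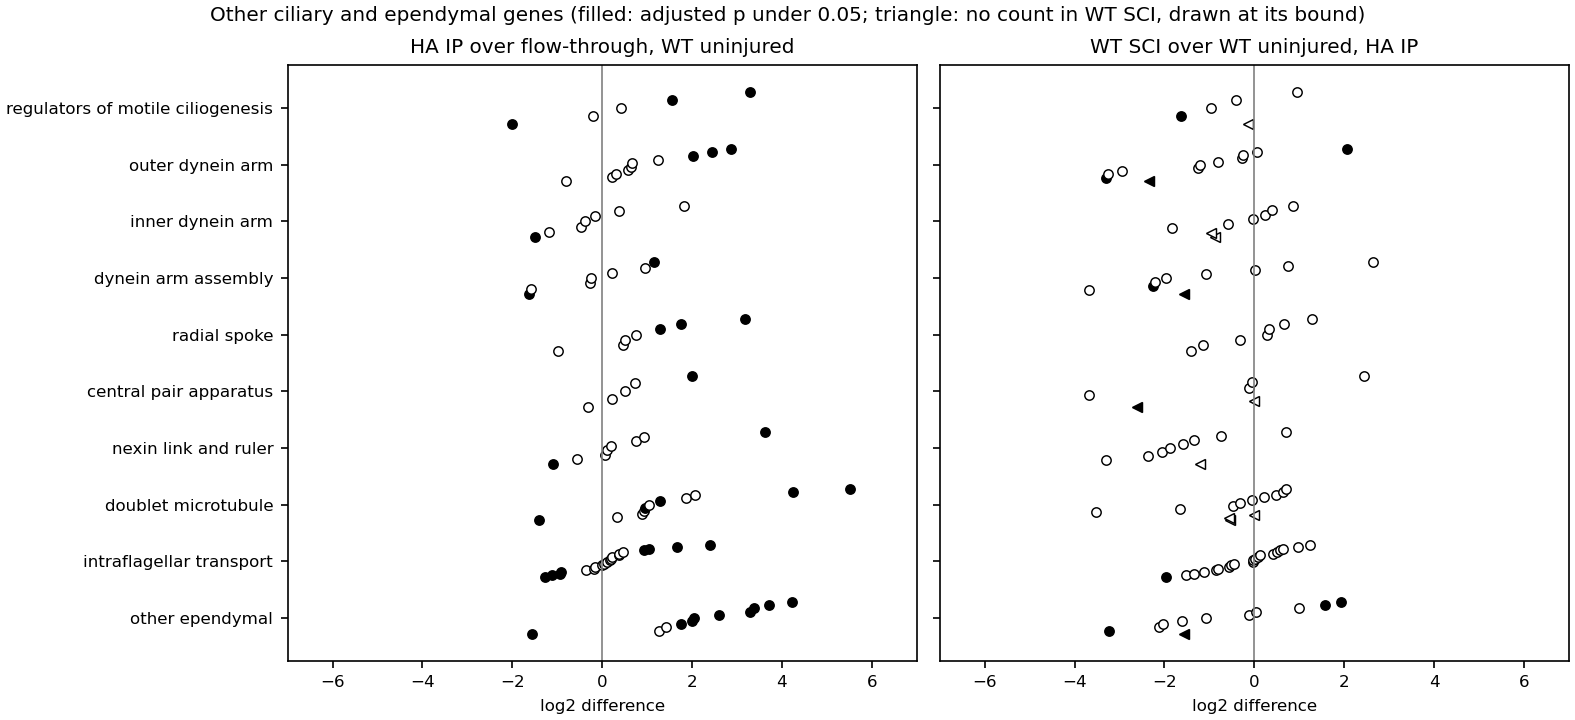
Log2 difference (horizontal axes) of each gene tested in the role lists, for HA IP over flow-through in WT uninjured animals and for WT SCI over WT uninjured animals in HA IP. Points are genes, filled at adjusted p under 0.05, and triangles are genes with no count in WT SCI, drawn at the bound that 3 counts give, so that 2 open ones that overlap may look filled. Between the fractions 8 of 11 other ependymal markers are filled on the positive side, and after injury the outer dynein arm and assembly lists have 2 filled genes each on the negative side.

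The comparison of STAT3-CKO SCI with WT SCI in HA IP asks how injured cords differed with and without the deletion. Genotype and usable depth went largely together in these libraries, so their effects cannot be told apart. None of the 9 genes passed the test (edgeR, 0 of 9, 3 with an unadjusted p under 0.05, 0 by DESeq2), where 1.16% of all genes tested passed, 0.596% higher and 0.562% lower. Hydin had 0.386, 0.0297 and 1.04 CPM in STAT3-CKO SCI animals 186, 531 and 270, against 0, 0.124, 0 and 0 CPM in WT SCI animals. Rsph4a had 0.464, 0 and 1.46 CPM in STAT3-CKO SCI, against 0, 0.124, 0 and 0.0755 CPM in WT SCI. For both genes 2 of the 3 STAT3-CKO SCI libraries lay above all WT SCI libraries and animal 531 did not. The log2 difference was 3.80 ± 1.53 for Hydin (adjusted p = 0.224) and 3.31 ± 1.43 for Rsph4a (adjusted p = 0.261). Animal 270, with the deepest library of its group (17348247 counts outside ribosomal rows), gave 94.8% of the Hydin and 96.2% of the Rsph4a counts of the STAT3-CKO SCI group, and without it the log2 differences were 2.31 and 1.54.

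Tekt1 had 0, 0.0890 and 0.401 CPM in STAT3-CKO SCI HA IP, against 1.08, 4.23, 0.192 and 0 CPM in WT SCI HA IP. Its log2 difference of -2.85 ± 1.25 (adjusted p = 0.266) was -0.53 without WT SCI animal 9874. Foxj1 had 5.64, 9.46 and 11.03 CPM in STAT3-CKO SCI HA IP, against 10.0, 21.2, 8.62 and 13.6 CPM in WT SCI HA IP. The ranges overlapped, and the log2 difference was -0.63 ± 0.40 (adjusted p = 0.444). Dnali1 (-0.77 ± 0.74), Ccdc153 (0.64 ± 0.77), Tmem212 (0.93 ± 1.34), Spag16 (0.68 ± 1.37) and Rsph1 (0.27 ± 0.56) had differences within about 1 SE of 0. For Spag16 and Tmem212 the sign rested on animal 270, since without it the log2 differences were -1.23 and -2.77.

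In the lists by role 0 of 87 genes passed (edgeR, 9 with an unadjusted p under 0.05, 4 called by DESeq2). The smallest p in their lists belonged among others to the doublet gene Wdr16 (4.87, adjusted p = 0.0826), the outer arm heavy chain Dnah5 (3.05, adjusted p = 0.0822) and Rfx3 (1.30, adjusted p = 0.0910), each with a positive log2 difference. Among 11 other ependymal markers Tm4sf1 had -2.36 (adjusted p = 0.0650), and none passed.

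Set against WT uninjured animals, the STAT3-CKO SCI animals had no called gene among the 9 in HA IP (edgeR, 0 of 9, 1 with an unadjusted p under 0.05, 0 by DESeq2), where 9.78% of all genes passed, 7.7% higher and 2.08% lower. This comparison shares the STAT3-CKO SCI libraries with the preceding one and the WT uninjured libraries with the injury comparison, and genotype and injury both differ in it. Foxj1 had 8.71 ± 2.77 CPM in STAT3-CKO SCI (SD, n = 3) and 4.76 ± 0.166 CPM in WT uninjured animals (SD, n = 4). All 3 STAT3-CKO SCI libraries lay above all 4 WT uninjured ones, with a log2 difference of 0.89 ± 0.39 (adjusted p = 0.172, or 0.0287 without the WT SCI libraries in the fit). Its value in WT SCI against WT uninjured animals was 1.51 ± 0.37. Rsph4a had -0.67 ± 1.00 (adjusted p = 0.744) here and -3.97 ± 1.37 in WT SCI against WT uninjured animals, and Hydin had 0.56 ± 0.94 (adjusted p = 0.777) here and -3.24 ± 1.5004 there. Tekt1 (-1.42 ± 1.16) and Tmem212 (-1.39 ± 1.12) had negative estimates that did not pass, and Rsph1 (-0.02 ± 0.54), Spag16 (-0.08 ± 1.07), Dnali1 (-0.33 ± 0.70) and Ccdc153 (-0.46 ± 0.72) were nearer to 0. Of the genes grouped by role, Dnaic1 alone fell (-2.93 ± 0.80, adjusted p = 0.0237), the outer arm gene that also fell in WT SCI. That count of 1 was 0 without any one of the 4 WT uninjured animals or of STAT3-CKO SCI animals 186 and 531, 4 without animal 270, 3 by DESeq2 and 7 without the WT SCI libraries in the fit.

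In flow-through, which holds the RNA of all cells other than what was pulled down, only Foxj1 and Rsph1 had enough counts to be tested. Neither passed in WT SCI against WT uninjured animals (edgeR, 0 of 2 tested, 0 with an unadjusted p under 0.05, 0 by DESeq2), where 31% of all 12685 genes tested passed, 16.7% higher and 14.3% lower. Foxj1 had 11.6, 2.67, 1.91 and 4.09 CPM in WT SCI flow-through, against 3.64, 1.22, 2.73 and 2.80 CPM in WT uninjured flow-through. The WT SCI values rest on 7, 4, 3 and 14 counts, the groups overlapped, and the log2 difference was 0.94 ± 0.59 (adjusted p = 0.237). Rsph1 had 1 count in WT SCI flow-through, where 9.75 would be found at the WT uninjured level, and 213 counts in WT uninjured flow-through (-2.69 ± 1.45, adjusted p = 0.163). Hydin, Spag16 and Tmem212 had 0 counts in all 4 WT SCI flow-through libraries, where 4.44, 1.05 and 1.97 counts would be found at the WT uninjured level. In pooled counts Hydin was lower in WT SCI, with a 95% counting interval of the ratio from 0 to 0.847, which covers counting error only. For Spag16 and Tmem212 no difference was detectable at this depth. Of 53 genes grouped by role 6 rose and 7 fell in WT SCI flow-through, neither share above that of all genes. The split depended on the fit, with 4 of 14 called genes higher under RLE scaling (another way to set library sizes), 3 of 13 by DESeq2 and 3 of 13 with only both groups in the fit. In the edgeR fit of all flow-through libraries those that rose were Dnaaf3 (3.39), Heatr2 (1.496), Spef1 (3.81), Kif9 (2.50), Mns1 (2.69) and Ift52 (1.46), and those that fell included Dnaic1, Dnah9, Lrrc6 and Nme5, all at 0 counts in WT SCI, and Ift20 (-1.56) and Dync2h1 (-1.29). The genes at 0 counts there passed the filter on low counts only through the other groups, so their falls are a description only. The count of 13 was 1 after thinning to equal depth, 7 without the ribosomal rows, 7, 5 and 8 without WT uninjured animals 79, 65 and 154, and 8 and 5 without WT SCI animals 9843 and 9596.

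In STAT3-CKO SCI against WT SCI flow-through (0.118% of all genes passed, 0.0867% higher and 0.0315% lower) Foxj1 differed by 0.05 ± 0.64 on the log2 scale (adjusted p = 0.983) and Rsph1 by 2.57 ± 1.56 (adjusted p = 0.488). In STAT3-CKO SCI against WT uninjured flow-through (13.9% passed, 10.4% higher and 3.53% lower) Foxj1 differed by 0.99 ± 0.56 (adjusted p = 0.274), with all 3 STAT3-CKO SCI libraries above all 4 WT uninjured ones, and Rsph1 by -0.11 ± 0.87. In both comparisons edgeR called 0 of the 2 genes, 0 had an unadjusted p under 0.05, and DESeq2 called 0. Hydin had 1.44, 0.255 and 0.424 CPM in STAT3-CKO SCI flow-through, 0 in each WT SCI library and 0.712, 0.377, 0.436 and 0.705 CPM in WT uninjured flow-through. Hydin was thus found in all STAT3-CKO SCI and WT uninjured flow-through libraries and in none of the WT SCI ones. The WT SCI flow-through libraries held 91626 to 615302 counts outside ribosomal rows and the STAT3-CKO SCI ones 460759 to 4022328. In the deepest WT SCI library, of animal 9596, 3 counts corresponded to 0.876 CPM, above every WT uninjured Hydin level. Whether depth plays a part in the absence of Hydin was not tested. A difference between STAT3-CKO SCI (16 counts) and WT SCI (0 counts) was not detectable at this depth, since the 95% counting interval of the pooled ratio reached down to 0.839.

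Between the fractions of injured animals few of the 9 genes could be tested. In WT SCI only Foxj1 was, at a log2 difference of 1.38 ± 0.69 in HA IP against flow-through (adjusted p = 0.259), and 0 of 1 passed by edgeR (0 with an unadjusted p under 0.05, 0 by DESeq2) where 6.25% of 8466 genes passed, 4.09% higher and 2.16% lower. In pooled counts Rsph1 had 65 in HA IP and 1 in flow-through (ratio 15.8, 95% counting interval 2.73 to 632), Dnali1 had 44 and 2 (5.33, 1.39 to 45.4) and Tekt1 had 38 and 1 (9.21, 1.56 to 373). Animal 9874 gave 34 of the 38 Tekt1 counts. Ccdc153 had 27 and 5 (1.31, 0.497 to 4.35) and Rsph4a had 2 and 1 (0.485, 0.0252 to 28.6), with intervals that span 1. Hydin, Spag16 and Tmem212 had 1, 4 and 5 counts in HA IP and 0 in flow-through. When all 22 libraries shared 1 fit, Foxj1 (1.64 ± 0.51, adjusted p = 0.0319) and Rsph1 (3.85 ± 1.24, adjusted p = 0.0403) passed. In STAT3-CKO SCI animals 4 genes were tested and 0 passed by edgeR (1 with an unadjusted p under 0.05, 0 by DESeq2), where 11.8% of 12659 genes passed, 7.12% higher and 4.7% lower. Ccdc153 had 0.850, 1.01 and 1.804 CPM in HA IP, against 0, 0 and 0.270 CPM in flow-through. The groups did not overlap, and the log2 difference of 2.79 ± 1.10 (adjusted p = 0.115) was 3.13 with the animal as a block (adjusted p = 0.0153). Foxj1 differed by 0.89 ± 0.45 (adjusted p = 0.230), Rsph1 by 1.42 ± 0.85 (adjusted p = 0.322) and Hydin by -0.37 ± 1.19 (adjusted p = 0.883). Of the genes grouped by role Ift27 (2.21) and Ift57 (2.12), both of intraflagellar transport, were higher in HA IP, as was the ependymal marker Mia (4.81). The count of 2 role genes was 0 after thinning to equal depth or without HA IP of animal 186, flow-through of animal 531 or flow-through of animal 270, 1 without HA IP of animal 531, and 5 with the animal as a block.

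Whether the response to injury or to the deletion differed between the fractions was tested as an interaction over all 22 libraries and 15142 genes. None of the 9 genes passed for injury (edgeR, 0 of 9, 1 with an unadjusted p under 0.05, 0 by DESeq2), where 4.71% of all genes did (2.67% higher and 2.03% lower), or for genotype (0 of 9, 0 with an unadjusted p under 0.05, 0 by DESeq2), where 0.0264% did (0.0066% higher and 0.0198% lower). The median over all genes was 0.26 for injury and -0.12 for genotype, and values are to be read against it. Ccdc153 had -3.23 ± 1.39 for injury (adjusted p = 0.209) and 2.91 ± 1.58 for genotype (adjusted p = 0.840). Both rest on 5 counts in WT SCI flow-through, of which animal 9843 gave 4. Without its flow-through library the values were -1.21 for injury and 0.89 for genotype. Foxj1 had 0.77 ± 0.66 (adjusted p = 0.619) and -0.69 ± 0.72 (adjusted p = 0.987), so that its rise in HA IP was not shown to differ from its value in flow-through. Hydin, Spag16 and Tmem212 had no counts in WT SCI flow-through and give no usable estimate here.

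Across the 22 libraries the 9 genes did not move as one. The Pearson correlation of each gene's log2 CPM with the mean of the others was 0.14 for Foxj1, 0.25 for Hydin, 0.46 for Dnali1, 0.51 for Ccdc153, 0.52 for Tekt1, 0.55 for Spag16, 0.60 for Rsph4a, 0.62 for Rsph1 and 0.73 for Tmem212. Foxj1, the regulator, thus stood farthest from the rest. The 10 genes whose profile was most like the mean of the 9, among 8504 genes of sufficient level, were Kcnip3 (r = 0.89), Cdh20, Sdc2, Scg3, Rab5c, Cntfr, Lsamp, Sema6d, Jam2 and Fads1 (r = 0.86), none of which is in the ciliary or ependymal lists. These correlations are over 22 libraries that share animals in pairs and differ in depth and in fraction, and they are a description only.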

How the data were processed

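RNA from the HA IP and the flow-through of 11 mice (22 libraries) had been amplified and sequenced, per the labels' protocols. The deposited tables hold whole-number counts per gene, which were not normalized. CASAVA 1.8.2, edgeR and the build mm10 are named in the submitters' processing notes, but an aligner, a counting tool and a strand setting were not given in the sources used here. All 22 libraries stand in more than 1 table with equal counts, and 124 columns of per-sample values with no matching label were not used. The 9 genes and the role and marker lists were chosen with earlier results of these data known.

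The counts were tested with edgeR 4.0.16 in R 4.3.3 (quasi-likelihood F test, filterByExpr, TMM scaling, two-sided). The filter on low counts (filterByExpr) can admit a gene through the deeper libraries alone. Genes low in WT SCI thus entered more readily than genes low in WT uninjured animals. P-values were adjusted by Benjamini-Hochberg over all genes tested, and called genes are those with an adjusted p under 0.05. The 3 groups of a fraction shared 1 fit, the fractions were compared within 1 condition, and the interactions used all 22 libraries. Levels are CPM on 1 TMM scale for all 22 libraries. Standard errors are the log2 difference divided by the square root of F. The procedure was tested on simulated data, with changes planted only in genes above a set mean level. Most of the 9 genes lie below that level, so this test does not cover genes with counts as low as theirs. A fold against a group at 0 was computed from 3 counts over that group, ratios of pooled counts carry exact 95% intervals, and both cover counting error only. Named genes were all 9 genes and, per role list and comparison, up to 2 called genes per direction with the smallest p, or the 1 gene with the smallest p. RefSeq sequences and lengths (GRCm38) were matched by symbol and accession.

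HA IP and flow-through of 1 animal pair by design, and in 11 of 11 animals their deviations from the group means correlated (r from 0.319 to 0.679). No pair of libraries of a group differed by as little as sampling noise. Alternatives were RLE scaling, DESeq2 1.42.0, no filter, no ribosomal rows, thinning to equal depth, other sets of libraries in the fit, the animal as a block and leaving out each library. The values of 1 gene of the role lists are not reported here.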

Additional observations from a re-analysis of the deposited data

Results flagged for a closer look

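In 7 of 33 sets of 4 libraries, 1 library stood apart from the other 3 by Dixon's criterion, which chance meets in about 1 in 20 sets of continuous values. In each of the 7 the other 3 libraries were at 0, where a single count is enough to meet the criterion, so the number of such sets reflects sparse counts and is not to be read against that rate. In WT SCI HA IP, animal 9874 stood apart for Tmem212, at 0.622 CPM (5 counts) against 0 in the other 3 animals, and for Hydin, at 0.124 CPM (1 count) against 0. In WT SCI flow-through, animal 9874 stood apart for Tekt1 and for Rsph4a, each at 0.668 CPM (1 count) against 0 in the other 3 animals. In the same group animal 9935 stood apart for Dnali1, at 3.32 CPM (2 counts), and animal 9843 for Rsph1, at 0.636 CPM (1 count). In WT uninjured flow-through, animal 79 stood apart for Tekt1, at 0.0839 CPM (2 counts) against 0 in the other 3 animals.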

How the results depend on the processing

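For single genes among the 9, 324 values were recomputed under settings other than leaving out a library. Of these, 311 kept their direction and their side of the threshold, 3 lost and 7 gained a call, and 3 changed direction. The 3 were Foxj1 in STAT3-CKO SCI against WT SCI flow-through, at -0.00091 with RLE scaling and -0.053 without the WT uninjured libraries in the fit, and Tekt1 in the genotype interaction, at 0.46 with the animal as a replicate block. Of the 9 genes, 3 passed between the fractions of WT uninjured animals and 2 in WT SCI when all 22 libraries shared 1 fit, 1 passed after injury in HA IP with libraries thinned to equal depth (Rsph4a was then untested), 1 passed in STAT3-CKO SCI against WT uninjured HA IP without the WT SCI libraries, and 1 passed between the fractions of STAT3-CKO SCI with the replicate block. With the block and pairing by animal, 1096 genes in all were called between the fractions in WT SCI (529 without it), 3105 in STAT3-CKO SCI (1496), 1934 in the injury interaction (713) and 31 in the genotype interaction (4). In the comparisons within 1 fraction no paired analysis was possible because the groups share no animals. The block changed no other call of the 9 genes than those of Rsph4a and Ccdc153 given above.

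Over all genes, the count in STAT3-CKO SCI against WT SCI HA IP was 171, 917 by DESeq2 and 36 without the WT uninjured libraries. In STAT3-CKO SCI against WT uninjured HA IP it was 1444, 2254 by DESeq2, 962 after thinning and 3585 without the WT SCI libraries. In flow-through, STAT3-CKO SCI against WT SCI gave 15, 213 by DESeq2, 131 with no filter and 4 with only both groups in the fit, WT SCI against WT uninjured gave 3933 and 1345 after thinning, and STAT3-CKO SCI against WT uninjured gave 1769, 672 after thinning and 2751 with only both groups. Between fractions, WT uninjured gave 7250 and 3369 with all 22 libraries in 1 fit, and WT SCI gave 529, 948 by DESeq2 and 1706 in that fit. The injury interaction gave 713, 1184 by DESeq2 and 303 after thinning, and the genotype interaction gave 4, 13 by DESeq2, 1 with RLE scaling and 0 after thinning. RLE scaling moved the share of higher calls from 1321 of 1769 to 1135 of 1812 in STAT3-CKO SCI against WT uninjured flow-through, and from 405 of 713 to 258 of 663 in the injury interaction (327 of 713 without ribosomal rows). The median of all genes in WT SCI against WT uninjured flow-through was -0.09, and -0.21 with RLE scaling. The causes were not tested.

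Leaving out each library in turn kept 566 of 612 values of single genes in direction and call. The number of the 9 genes called after injury in HA IP was 1 to 2, and between the fractions of WT uninjured animals 5 to 7. The counts over all genes that moved were 848 to 1444 and 39 to 343 in HA IP of STAT3-CKO SCI (against WT uninjured and WT SCI animals), 2 to 29 in STAT3-CKO SCI against WT SCI flow-through, 255 to 502 and 802 to 1448 between the fractions of WT SCI and STAT3-CKO SCI, and 0 to 4 in the genotype interaction. The direction changed for Tekt1 after injury in HA IP (-0.87 to 1.90). In STAT3-CKO SCI against WT uninjured HA IP it changed for Rsph1 (-0.33 to 0.13), Hydin (-0.96 to 1.11), Spag16 (-2.04 to 0.37) and Dnali1 (-0.75 to 0.067). In STAT3-CKO SCI against WT SCI HA IP it changed for Rsph1 (-0.033 to 0.48), Spag16 (-1.23 to 2.52) and Tmem212 (-2.77 to 8.20). In flow-through it changed for Rsph1 (-0.63 to 0.54, against WT uninjured) and Foxj1 (-0.22 to 0.57, against WT SCI), and between the fractions of STAT3-CKO SCI for Hydin (-0.78 to 0.43). In the injury interaction it changed for Tekt1 (-4.76 to 4.46), Rsph4a (-3.76 to 3.25), Tmem212 (-1.80 to 5.22) and Dnali1 (-3.66 to 5.46), and in the genotype interaction for Tekt1 (-6.71 to 3.29), Rsph4a (-3.28 to 9.45), Spag16 (-4.98 to 0.59), Tmem212 (-7.77 to 2.07) and Dnali1 (-6.38 to 1.92).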

Other observations

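The 5 markers of cerebrospinal-fluid-contacting neurons, which lie among the ependymal cells of the central canal, were low in HA IP. Their summed level was 0.504 to 1.61 CPM in STAT3-CKO SCI, 0.249 to 1.34 CPM in WT SCI and 0.761 to 1.11 CPM in WT uninjured HA IP. In flow-through it was 1.08 to 4.86 CPM in STAT3-CKO SCI, 0 to 2.63 CPM in WT SCI and 2.06 to 3.06 CPM in WT uninjured animals.

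Fibroblast markers summed to 17.2 to 30.5 CPM in STAT3-CKO SCI, 11.2 to 63.8 CPM in WT SCI and 9.31 to 14.1 CPM in WT uninjured HA IP, and 2 of 4 tested rose in WT SCI. Endothelial markers were too low to be tested in any comparison within HA IP, at 0.773 to 3.61 CPM in STAT3-CKO SCI, 0 to 1.53 CPM in WT SCI and 0.0406 to 0.233 CPM in WT uninjured HA IP.

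The summed level of the 20 intraflagellar transport genes, which serve primary cilia too, was 97.0 to 102 CPM in STAT3-CKO SCI, 109 to 120.3 CPM in WT SCI and 110.5 to 127 CPM in WT uninjured HA IP. All 3 STAT3-CKO SCI libraries lay below all 4 WT SCI and all 4 WT uninjured ones. Gene by gene this was not seen against WT SCI, where 10 estimates were positive and 10 negative, with a median log2 difference of -0.03 and 0 called. Against WT uninjured animals 8 were positive, 12 negative and 0 called. How often such sums separate for other sets of genes was not tested. The outer dynein arm genes summed to 8.11 to 14.1 CPM in STAT3-CKO SCI, 6.46 to 21.1 CPM in WT SCI and 20.9 to 22.9 CPM in WT uninjured HA IP. All 3 STAT3-CKO SCI libraries and 3 of the 4 WT SCI libraries lay below all 4 WT uninjured ones. The other WT SCI library, of animal 9596, had 279 outer arm counts, of which 142 were of Ccdc114. Gene by gene against WT uninjured animals, 1 of 11 outer arm genes tested rose and 2 fell in WT SCI, and 0 rose and 1 fell in STAT3-CKO SCI.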
